A study of Rattus norvegicus with 7 samples.

Results

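Tissue culture plastic (TCP), the surface on which adherent cells are routinely grown, was set against 2 polymer films. A gene was taken as TCP-specific when its TCP value + 1 was over 2-fold above or below the value + 1 in each of the 6 film libraries and when TCP or the film mean reached 16 FPKM (fragments scaled by transcript length and by the size of the library). Of 17147 symbols, 9537 had 1 FPKM or more in at least 3 of the 7 files and 5187 of these reached 16 FPKM. The rule found 244 genes. In 65 of them, 0.682% of the genes tested, TCP was higher than every film library, and in 179, or 1.88%, it was lower. These values chose the genes, so levels on TCP are given as a description with no test.

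The cells were rMSCs, primary mesenchymal stem cells grown out of the bone marrow of a male Sprague-Dawley rat aged 6 weeks, and no genetic change or drug was involved. They were kept in alpha MEM with serum, and 20000 cells were placed on each surface. RNA was taken 4 h later. The films, 16 mm wide and sterilised with ethylene oxide, were PCL (polycaprolactone, a degradable polyester) and ISB-P (a polyurethane copolymer of PCL that carries propoxylated isosorbide), with 3 libraries each, and TCP had 1 library. Further TCP libraries were not analysed here. As the cells came from 1 animal, the replicates of a film may be repeat cultures, and the spread among them is not that among animals. The surface cannot be told apart from anything else particular to that TCP culture or library, and the source of the plastic ware and its sterilisation are not given in the sources used here.

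Attachment to a new surface engages integrins, the receptors for matrix proteins, and is followed within hours by immediate early transcription, cytoskeletal change and, where conditions allow, passage through the cell cycle. Genes of DNA replication are transcribed as cells pass from G1 into S phase under E2F factors, and genes of mitosis later, in G2 and M phase, under the DREAM, B-MYB and FOXM1 complexes. Oxidants and electrophiles release the factor NRF2 from KEAP1, and NRF2 then induces enzymes of glutathione synthesis, quinone reduction and haem breakdown.

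The label of the cells was read against marker genes. On TCP, Thy1 was at 1209.8, Cd44 at 343, Pdgfrb at 177 and Col1a1 at 10405.8 FPKM, all markers of mesenchymal stem cells. Others on that marker list were low on TCP, with Eng at 19.2, Nt5e at 9.56 and Lepr at 0.706 FPKM. The 12 such markers summed to 13200.3 FPKM on TCP against 7121 to 8338 FPKM on the films. Col1a1 made that gap, since the other 11 summed to 2794 FPKM on TCP, within the 2276 to 3253 FPKM of the films. Markers of neutrophils and mast cells, lymphocytes, erythroid and endothelial cells stayed under 1 FPKM in all 7 libraries. The 14 macrophage and monocyte markers in the files summed to 165 FPKM on TCP and 51.2 to 60.9 FPKM on the films. Of these, 8 passed the filter and all 8 were above every film library, as were 25.7% of all tested genes, while Cd74, C1qb and C1qc were under 1 FPKM throughout and Ptprc was at 1.48 FPKM on TCP against 0.433 to 1.23 FPKM on the films. The 6 adipocyte markers summed to 118 FPKM on TCP against 32.7 to 62.9 FPKM. Smooth muscle and pericyte markers, 6 in number, summed to 3179 FPKM on TCP against 2710 to 3228 FPKM on the films. For the 6 osteoblast markers the sums were 738 and 690 to 865 FPKM, and for the 2 chondrocyte markers 76.7 and 50.8 to 77.7 FPKM. Some symbols, Col1a2 among them, were listed at 0 in every library although mesenchymal cells use the gene, so a value of 0 is given here only as listed. The sums of all values, 539393 FPKM on TCP and 542921 to 660124 FPKM on the films, are not depths, and the number of reads is unknown.

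Across the 9537 genes, TCP and the film mean ran together, with a Pearson correlation of 0.939 on log2(FPKM + 1), across genes, which are not independent replicates. TCP lay within 2-fold of the film mean in 90.3% of them. The median difference of TCP from the films was -0.06 on that scale, 0.09 after upper quartile scaling, 0.06 after scaling to a common total, 0.02 after quantile normalization and 0 after median-of-ratios scaling. The genes that met the rule also changed with the scaling, some being gained and some lost. After upper quartile scaling 101 genes were higher and 152 lower on TCP, after scaling to a common total 94 and 153, and after quantile normalization 90 and 161. All 65 TCP-higher genes were found again under each of these 3 scalings, and 152, 153 and 160 of the 179 TCP-lower genes. TCP had the lowest sum of values, so scaling to a common total raises it against every film library and must keep all 65. Upper quartile scaling and quantile normalization also raised the median difference of TCP from the films. Finding the 65 genes again is therefore no separate support for them.

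**Figure D1:**
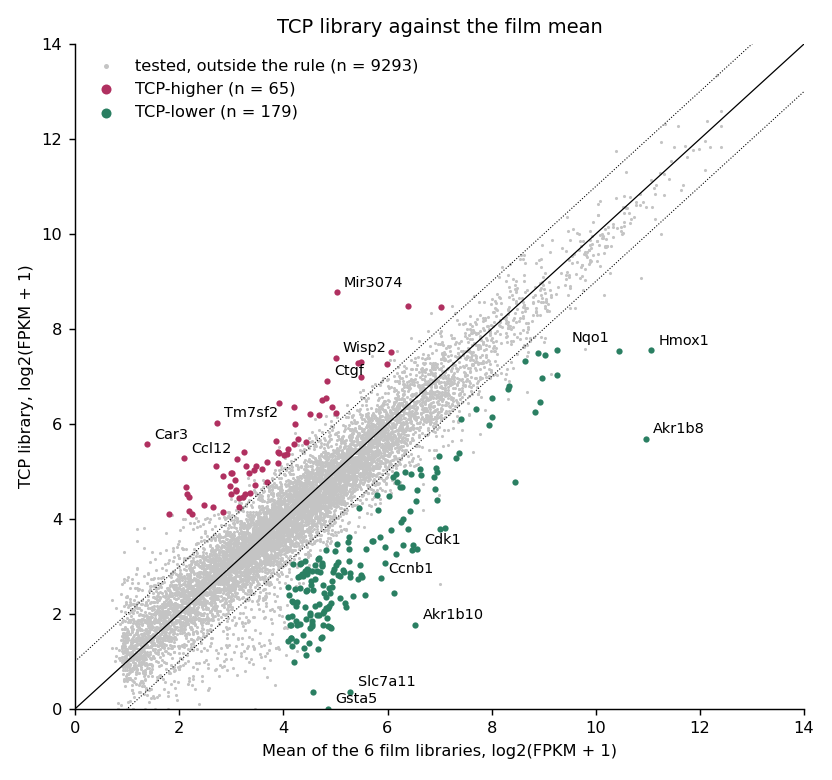
Each point is 1 of the 9537 genes tested, with the mean of the 6 film libraries on the horizontal axis and the TCP library on the vertical axis, both as log2(FPKM + 1). The solid line marks equal values and the dotted lines a 2-fold difference. The 65 TCP-higher genes lie above and the 179 TCP-lower genes below the dotted lines.

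The smallest of a gene's 6 folds against single film libraries, here its least fold, on value + 1, had a median of 2.58 among the TCP-higher and 3.41 among the TCP-lower genes. It was over 8 for 2 and 6 genes in these directions and over 4 for 8 and 72. Just inside the limit lay Fam129a, Cdc42ep1 and Lpl at 2.02, 2.04 and 2.05 on the high side and Ska2, Psmd5 and Mmd at 2.00, 2.01 and 2.01 on the low side. Just outside lay Adamtsl4, Ifi27 and Zfp503, each at 2.00 when rounded, and Nup93, Cse1l and Rangap1 at 2.00, 1.98 and 1.97. The level was low on 1 side for most members. Of the 65 TCP-higher genes 43 had a film mean under 16 FPKM, and of the 179 TCP-lower genes 136 were under 16 FPKM on TCP. All 244 had 1 FPKM or more in at least 3 of the 6 film libraries, so none needed TCP to pass the filter on low values. The level of 16 FPKM did work on 1 side. Those 43 genes reached it only on TCP, and those 136 only in the film mean.

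Grouped by function after their values were seen, the TCP-lower genes held 76 genes of mitosis and chromosome segregation and 43 of DNA replication, repair and chromatin, together 119 of the 179. Antioxidant and detoxification genes made up 21, secreted ligands and signalling feedback 14, metabolism and transport 10, and RNA, protein and other functions 15. The TCP-higher genes held 15 matrix and secreted proteins, 15 membrane receptors, enzymes, transport and signalling genes, 10 interferon, complement, chemokine and macrophage-associated genes, 9 genes of lipid, sterol, retinoid and vitamin D metabolism, 5 metabolic or repair enzymes, 4 transcription factors and 7 others.

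**Figure D2:**
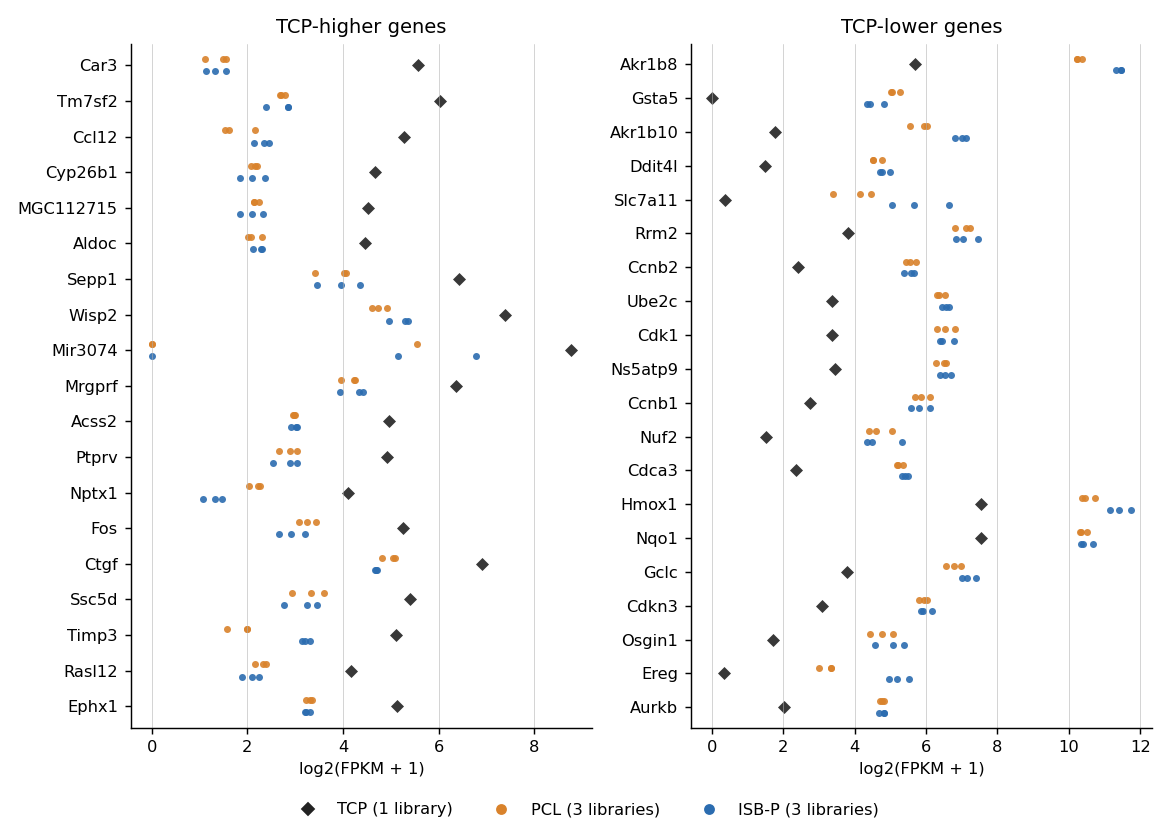
Among the genes with the largest least fold, 19 of the first 20 TCP-higher (left) and the first 20 TCP-lower (right), with log2(FPKM + 1) on the horizontal axis. Diamonds stand for the TCP library and circles for each of the 3 PCL and 3 ISB-P libraries. In each row the diamond is apart from all 6 circles, as the rule requires, and in Akr1b8, Akr1b10, Ereg and Timp3 the circles of PCL and ISB-P are also apart.

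Mitosis genes formed the largest group on the low side. Cdk1, the kinase that drives entry into mitosis, was at 9.28 FPKM on TCP, 77.9, 92.1 and 111 FPKM on PCL and 82.4, 86.9 and 109 FPKM on ISB-P. Its partner cyclins were low on TCP with it, Ccnb1 at 5.73 FPKM on TCP against 47.0 to 68.3 FPKM on the films and Ccnb2 at 4.30 FPKM on TCP against 40.8 to 52.1 FPKM on the films. The values of the films overlapped for all 3 genes. Ube2c, which feeds ubiquitin to the anaphase-promoting complex, was at 9.23 FPKM on TCP, 81.2, 91.8 and 78.0 FPKM on PCL and 92.9, 98.5 and 86.8 FPKM on ISB-P. Cdc20, an activator of that complex, was at 9.65 FPKM on TCP, 77.6, 68.1 and 60.4 FPKM on PCL and 59.4, 54.1 and 44.3 FPKM on ISB-P, and here ISB-P lay below PCL in every library. Mki67, the proliferation marker Ki-67, was at 3.05 FPKM on TCP, 20.8, 20.8 and 24.3 FPKM on PCL and 19.4, 18.2 and 27.5 FPKM on ISB-P.

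Among kinases of mitosis, Plk1 was at 5.66 FPKM on TCP against 31.6 to 50.7 FPKM on the films, Aurkb of the chromosomal passenger complex at 3.05 FPKM on TCP against 24.7 to 27.3 FPKM on the films, and Aurka of the spindle poles at 4.40 FPKM on TCP against 24.1 to 30.8 FPKM on the films. Bub1 and Ttk, kinases of the spindle checkpoint, were at 2.74 and 1.51 FPKM on TCP against 14.8 to 45 and 11.3 to 26 FPKM. At the kinetochore, where microtubules meet chromosomes, Nuf2 was at 1.84 FPKM on TCP against 19.3 to 38.8 FPKM on the films and its partner Ndc80 at 1.92 FPKM on TCP against 15.9 to 29.9 FPKM on the films. Kinesins of the spindle and midzone followed, with Kif11 at 2.43 FPKM on TCP against 15.5 to 36.5 FPKM on the films and Kif20a at 6.05 FPKM on TCP against 39.0 to 48.1 FPKM on the films. Survivin (Birc5) was at 5.87 FPKM on TCP against 41.2 to 47.5 FPKM on the films, the topoisomerase Top2a at 3.45 FPKM on TCP against 26.3 to 52.7 FPKM on the films, and Cdca3, a trigger of mitotic entry, at 4.16 FPKM on TCP against 35.7 to 44.2 FPKM on the films. Cdkn3, a phosphatase that acts on Cdk1, was at 7.41 FPKM on TCP against 54.7 to 71.4 FPKM on the films. Every gene named here was at 10 FPKM or less on TCP and above that in each film library.

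On a list of 35 mitosis genes, 32 were in the files and all 32 were lower on TCP than in every film library. Over all tested genes that share was 29.4%. By the rule 28 of the 32 were TCP-lower and 0 TCP-higher. The other 4, Kif2c, Cenpf, Kif20b and Ect2, had film means of 12.5, 10.7, 11.9 and 13.9 FPKM, under the level of 16, against 1.6, 1.22, 1.25 and 1.46 FPKM on TCP. The list's median difference was -2.69 on the log2(FPKM + 1) scale, with single genes between -3.18 and -2.03, beside -0.06 over all tested genes. Genes of the microtubule cytoskeleton, from which the spindle is built, stood with them in part. Of 14 tested, 10 were below every film library and 3 were TCP-lower: Stmn1, a protein that destabilises microtubules, at 20.2 FPKM on TCP against 94.8 to 145 FPKM on the films, and the alpha-tubulins Tuba1b and Tuba4a, at 174 and 21.8 FPKM on TCP against 452 to 557 and 46.4 to 63.0 FPKM. These are bulk libraries, in which fewer dividing cells and less RNA per dividing cell cannot be told apart.

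The promoters of these genes are shown for what they share in sequence. RefSeq's table for GRCr8, a later build than the rn5 of the deposited values, gave 300 bases, from 250 before to 50 after the start of the gene, for 146 of the 179 TCP-lower and 42 of the 65 TCP-higher genes. Capitals mark the CCAAT box (CCAAT) and the cell cycle homology region (TTTGAA, the element read by the DREAM and B-MYB complexes), each on either strand. These 2 motifs were chosen after the values were seen. Both occur in Cdk1 (chr20:19265043-19265342, plus strand), Ccnb2 (chr8:79981609-79981908, minus strand) and Cdc20 (chr5:137255750-137256049, minus strand), here 5′ to 3′ along the gene.
Cdk1: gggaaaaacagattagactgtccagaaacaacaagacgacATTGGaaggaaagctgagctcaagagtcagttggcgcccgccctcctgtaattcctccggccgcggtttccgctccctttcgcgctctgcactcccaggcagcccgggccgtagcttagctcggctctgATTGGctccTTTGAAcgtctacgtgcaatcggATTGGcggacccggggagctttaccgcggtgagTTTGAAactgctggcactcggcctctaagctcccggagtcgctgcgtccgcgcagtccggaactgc
Ccnb2: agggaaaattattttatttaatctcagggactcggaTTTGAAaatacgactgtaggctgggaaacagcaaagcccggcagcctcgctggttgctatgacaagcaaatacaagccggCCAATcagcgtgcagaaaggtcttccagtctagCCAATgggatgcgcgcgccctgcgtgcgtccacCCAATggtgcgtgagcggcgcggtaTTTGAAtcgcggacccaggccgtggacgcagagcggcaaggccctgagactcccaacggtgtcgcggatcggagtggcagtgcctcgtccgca
Cdc20: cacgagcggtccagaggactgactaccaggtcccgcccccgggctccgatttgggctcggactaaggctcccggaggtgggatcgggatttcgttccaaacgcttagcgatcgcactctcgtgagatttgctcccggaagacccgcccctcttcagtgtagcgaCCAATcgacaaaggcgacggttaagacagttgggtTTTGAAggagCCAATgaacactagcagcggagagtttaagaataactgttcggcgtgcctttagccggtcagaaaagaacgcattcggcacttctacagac

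In Cdk1 a TTTGAA began 72 bases and another 16 bases before the start, in Ccnb2 214 and 43 bases before it, and in Cdc20 51 bases before it. TTTGAA was in the promoter of 41 of 65 mitosis genes with an entry (63.1%), of 13.9% of the 36 replication and chromatin genes, of 1 of 15 antioxidant genes (6.67%) and of 18.1% of all 27457 promoters. CCAAT was in 69.2%, 66.7%, 20% and 37.7% of the same groups. The 27457 promoters include those of genes outside the 9537 tested, while the groups hold only genes that met the rule. The shares are thus of unlike sets, here and for the motifs below. A match is a description of letters in this window and not a site of binding.

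Genes of DNA replication were low on TCP as well, with more variety. Rrm2, the regulated subunit of ribonucleotide reductase, which makes deoxynucleotides, was at 13.0 FPKM on TCP, 111, 138 and 149 FPKM on PCL and 112, 131 and 175 FPKM on ISB-P. Its partner Rrm1 was at 14.9 FPKM on TCP against 64.4 to 101 FPKM on the films. Ns5atp9 (Pclaf), a partner of the sliding clamp, was at 9.89 FPKM on TCP, 92.8, 76.7 and 90.0 FPKM on PCL and 91.2, 82.4 and 102 FPKM on ISB-P, and the clamp itself, Pcna, at 39.2 FPKM on TCP, 86.8, 119.5 and 136 FPKM on PCL and 95.8, 128 and 186 FPKM on ISB-P. Neither the clamp nor its partner separated the films. The replicative helicase was represented by Mcm3, Mcm4, Mcm5, Mcm6 and Mcm7, of which Mcm5 was farthest apart at 3.33 FPKM on TCP against 24.8 to 34.8 FPKM on the films. Mcm2, the remaining subunit of that helicase, was at 8.0 FPKM on TCP against 12 to 18.9 FPKM on the films and did not meet the rule. Tk1, thymidine kinase, was at 12.6 FPKM on TCP against 61.3 to 78.3 FPKM on the films.

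Of 31 replication genes on the list, 29 were below every film library, 14 were TCP-lower by the rule and 0 TCP-higher, with a median difference of -1.78. The range reached from -3.27 for Rrm2 to 0.04 for Gins2, which was at 7.22 FPKM on TCP and 7.07 FPKM in the film mean. Ccne1, the cyclin of G1 to S passage, was at 7.16 FPKM against a film mean of 11.5 FPKM. Of 14 G1 cyclins, kinases and inhibitors tested, 6 (42.9%) were above and 5 (35.7%) below every film library, beside 25.7% and 29.4% of all tested genes, and the median was 0.21. Ccnd1, the main D-type cyclin, was at 231 FPKM on TCP, 139, 151 and 159 FPKM on PCL and 109.7, 106 and 109.9 FPKM on ISB-P, so that TCP was highest. Cdkn2a was at 114 FPKM on TCP against 37.8 to 65.0 FPKM on the films. Cdkn2c, an inhibitor of Cdk4 and Cdk6 that is itself a target of E2F, was the TCP-lower gene of the list at 3.82 FPKM on TCP against 14 to 20.1 FPKM on the films. Chromatin genes on the low side included H2afz, a histone H2A variant, at 62.3 FPKM on TCP against 226 to 278 FPKM on the films, Uhrf1, which carries DNA methylation through replication, at 6.46 FPKM on TCP against 22.1 to 26.2 FPKM on the films, and Ezh2, the Polycomb methyltransferase, at 2.81 FPKM on TCP against 10.7 to 27.4 FPKM on the films.

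Antioxidant and detoxification genes held 4 of the 6 TCP-lower genes with a least fold over 8, Gsta5 among them although it was listed at 0 on TCP. Akr1b8, an aldo-keto reductase that reduces reactive aldehydes, was at 50.6 FPKM on TCP, 1326, 1194 and 1199.8 FPKM on PCL and 2840.2, 2564 and 2791 FPKM on ISB-P, with a least fold of 23.1. Akr1b10, its neighbour on the chromosome and a close relative, was at 2.41 FPKM on TCP, 45.8, 64.3 and 60.6 FPKM on PCL and 111, 129 and 139 FPKM on ISB-P. For both, every ISB-P library exceeded every PCL library. Reads of such near-identical relatives can be divided among them in counting, so the level of each is uncertain. Akr1b1, the aldose reductase of the same family, was at 159 FPKM on TCP against 343 to 463 FPKM on the films, a smaller difference. Gsta5, a glutathione S-transferase, was at 31.2, 32.3 and 37.4 FPKM on PCL and 20.4, 19.4 and 27.4 FPKM on ISB-P, and no fold is given against the listed 0. Gstp1, another transferase, was at 129.7 FPKM on TCP against 525 to 714 FPKM on the films.

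Of the 21 antioxidant genes, 5 act in cystine uptake or in the synthesis, reduction or breakdown of glutathione. Slc7a11, which imports the cystine from which glutathione is made, was at 0.287 FPKM on TCP, 9.44, 16.8 and 21.1 FPKM on PCL and 32.2, 50.1 and 98.6 FPKM on ISB-P. Gclc and Gclm, the catalytic and modifier subunits of the enzyme that starts the synthesis, were at 12.8 and 7.19 FPKM on TCP. The films held 93.4, 109 and 126 FPKM of Gclc on PCL and 128, 141 and 166 FPKM on ISB-P, and 24.4, 33.2 and 38.8 and 41.7, 54.0 and 66.5 FPKM of Gclm. For these 3 genes every ISB-P library was above every PCL library. Gsr, glutathione reductase, was at 17 FPKM on TCP against 62.2 to 114 FPKM on the films, and Ggt1, which breaks glutathione down outside the cell, at 3.46 FPKM on TCP against 13.3 to 34.9 FPKM on the films.

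Hmox1, haem oxygenase, was at 186 FPKM on TCP, 1686, 1408 and 1314 FPKM on PCL and 3451, 2687 and 2289 FPKM on ISB-P. Nqo1, the quinone reductase, was at 183 FPKM on TCP, 1274, 1304 and 1468 FPKM on PCL and 1307, 1335 and 1633 FPKM on ISB-P, and here the films overlapped. Txnrd1 and Srxn1, which reduce thioredoxin and peroxiredoxins, were at 74.6 and 87.3 FPKM on TCP against 337 to 609 and 374 to 617 FPKM. Osgin1, a growth inhibitor induced by oxidative stress, was at 2.25 FPKM on TCP against 20.4 to 40.8 FPKM on the films. Also TCP-lower were Bach1, a repressor of NRF2 targets, at 26.6 FPKM on TCP against 64.4 to 78.1 FPKM on the films, and Mafg, a DNA-binding partner of both NRF2 and Bach1, at 29.8 FPKM on TCP against 61.4 to 85.5 FPKM on the films.

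Of 25 NRF2 targets tested, 22 were below every film library, beside 29.4% of all tested genes. By the rule 11 were TCP-lower and 1 was TCP-higher, and the median of the list was -1.22. Outside the rule stood Prdx1, a peroxiredoxin, at 535 FPKM on TCP against 904 to 3402 FPKM on the films, and the ferritin chain Fth1, with a difference of -0.55. Ephx1, microsomal epoxide hydrolase, was the TCP-higher gene at 33.8 FPKM on TCP, 8.43, 8.89 and 9.28 FPKM on PCL and 8.90, 8.17 and 8.39 FPKM on ISB-P. Aldh3a1, an aldehyde dehydrogenase, was also higher on TCP, with a difference of 1.06, but did not meet the rule. Among 21 aldo-keto reductases and glutathione S-transferases the count was 5 TCP-lower and 0 TCP-higher. Of these 21, 12 (57.1%) were below and 7 (33.3%) above every film library, beside 29.4% and 25.7% of all tested genes. Akr1c14 was at 15.8 FPKM on TCP against 1.61 to 4.28 FPKM on the films, the opposite of the Akr1b genes, and stayed under the level of 16 FPKM on TCP. The antioxidant response element (TGACNNNGC), the site of NRF2 with small Maf proteins, was in 2 of the 15 promoters of the antioxidant group (13.3%) and in 12.2% of all promoters. All motifs were searched on both strands. The element is shown for Gclm (chr2:213031885-213032184, plus strand), in capitals and on the opposite strand, where it began 172 bases before the start.
Gclm: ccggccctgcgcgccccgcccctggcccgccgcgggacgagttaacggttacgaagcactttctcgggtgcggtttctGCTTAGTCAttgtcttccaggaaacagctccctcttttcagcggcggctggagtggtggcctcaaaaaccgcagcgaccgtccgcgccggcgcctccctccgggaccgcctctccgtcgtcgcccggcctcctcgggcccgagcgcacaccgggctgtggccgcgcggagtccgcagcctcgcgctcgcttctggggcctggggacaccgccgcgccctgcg

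**Figure D3:**
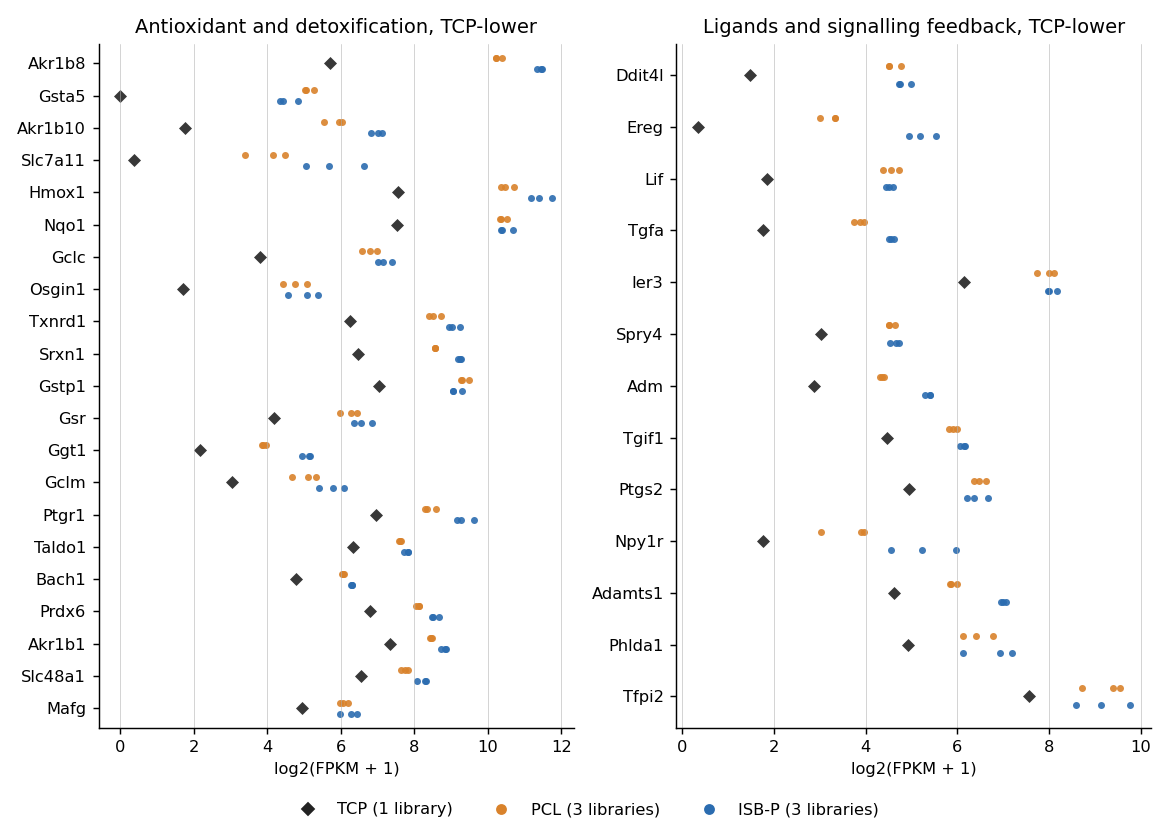
Levels of the 21 antioxidant and detoxification genes (left) and 13 of the 14 genes of secreted ligands and signalling feedback (right) that were TCP-lower, as log2(FPKM + 1), with diamonds for TCP and circles for each PCL and ISB-P library. The films overlap in Nqo1, Lif and Ptgs2 and are apart in Akr1b8, Srxn1, Ereg and Tgfa.

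None of 25 heat shock and chaperone genes tested met the rule in either direction. Of these, 15 (60%) were below every film library, beside 29.4% of all tested genes, and 0 above, with a median of -0.95 and a range from -1.88 to 0.51. Hspd1, the mitochondrial chaperonin, was at 132 FPKM on TCP against 250.3 to 1216 FPKM on the films, and Hsp90aa1, the inducible Hsp90, at 189 FPKM on TCP against 310.1 to 2167 FPKM on the films. Hspa1a was at 91.1 FPKM on TCP, 13.4, 10.9 and 10.1 FPKM on PCL and 954, 646 and 263 FPKM on ISB-P, so that TCP lay between the films. Its near-identical copy Hspa1b can share its reads, which makes that level uncertain. Zfand2a, an arsenite-inducible partner of the proteasome often induced with heat shock genes, was TCP-lower at 26.3 FPKM on TCP, 109.8, 118 and 122 FPKM on PCL and 554, 576 and 619 FPKM on ISB-P.

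Ligands and their feedback made up 14 TCP-lower genes. Ereg and Tgfa, which bind the EGF receptor, were at 0.269 and 2.42 FPKM on TCP. Ereg was at 7.06, 9.03 and 9.06 FPKM on PCL and 30.0, 35.4 and 45.3 FPKM on ISB-P, and Tgfa at 12.4, 14.6 and 13.8 and 21.9, 22.5 and 23.7 FPKM. Lif, a cytokine of the interleukin-6 family, was at 2.62 FPKM on TCP, 19.8, 25.5 and 22.7 FPKM on PCL and 21.9, 20.7 and 23.4 FPKM on ISB-P, with the films level. For Ereg and Tgfa the 3 surfaces stood in the same order, with TCP lowest, then PCL, then ISB-P. Areg, the EGF receptor ligand amphiregulin, did not meet the level of 16 FPKM, with 0.580 FPKM on TCP against 2.76 to 25.7 FPKM on the films. Adm, the vasodilator peptide adrenomedullin, was at 6.31 FPKM on TCP against 19.0 to 41.3 FPKM on the films. Ptgs2, the inducible cyclooxygenase, was at 30.0 FPKM on TCP against 73.3 to 101 FPKM on the films, and Spry4, a feedback inhibitor of receptor tyrosine kinases, at 7.13 FPKM on TCP against 21.9 to 25.4 FPKM on the films. Ddit4l, an inhibitor of mTOR signalling, had one of the largest least folds at 8.12, with 1.79 FPKM on TCP, 21.7, 22.0 and 26.4 FPKM on PCL and 26.1, 25.4 and 30.8 FPKM on ISB-P. In RefSeq's order of protein-coding genes on GRCr8, Ddit4l lay beside H2afz, Smc4 beside Trim59 and Akr1b8 beside Akr1b10, each pair TCP-lower.

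The TCP-higher genes were fewer and spread over more functions. Car3, a cytosolic carbonic anhydrase of muscle and fat, was at 46.6 FPKM on TCP, 1.93, 1.2 and 1.82 FPKM on PCL and 1.20, 1.49 and 1.95 FPKM on ISB-P, with a least fold of 16.1. Sepp1 (Selenop), the secreted carrier of selenium, was at 85.2 FPKM on TCP, 9.71, 15.7 and 15.3 FPKM on PCL and 10.0, 14.5 and 19.5 FPKM on ISB-P. Aldoc, an aldolase of glycolysis, was at 21.2 FPKM on TCP against 3.04 to 3.96 FPKM on the films. The films overlapped for all 3 genes.

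Genes of lipid and retinoid metabolism counted 9. Tm7sf2, a sterol reductase of cholesterol synthesis, was at 64.1 FPKM on TCP, 5.42, 5.89 and 5.49 FPKM on PCL and 6.26, 6.26 and 4.24 FPKM on ISB-P. Acss2, which makes acetyl-CoA from acetate, was at 30.4 FPKM on TCP, 6.92, 6.76 and 7.02 FPKM on PCL and 7.06, 6.5 and 7.27 FPKM on ISB-P. Scd1 and Fads2, fatty acid desaturases, were at 89.6 and 72.1 FPKM on TCP against 18.6 to 33.4 and 22.3 to 29.6 FPKM. Yet of 28 sterol and fatty acid synthesis genes tested, 12 (42.9%) were above and 2 (7.14%) below every film library. Over all tested genes these shares were 25.7% and 29.4%. On this list 2 genes met the rule, and the median was 0.23. Cyp26b1, which degrades retinoic acid, was at 24.3 FPKM on TCP, 3.49, 3.64 and 3.20 FPKM on PCL and 4.15, 3.31 and 2.61 FPKM on ISB-P, and Crabp2, which carries retinoic acid in the cell, at 158 FPKM on TCP, 27.8, 29.3 and 35.6 FPKM on PCL and 47.9, 49.2 and 72.5 FPKM on ISB-P. Vdr, the vitamin D receptor, was at 16.7 FPKM on TCP against 4.59 to 7.09 FPKM on the films. Lpl, lipoprotein lipase, is an adipocyte marker too and was at 35.5 FPKM on TCP against 9.18 to 16.8 FPKM on the films. Adipoq was at 1.58 FPKM on TCP against 0.0469 to 0.332 FPKM on the films. Plin1 was at 3.21 FPKM on TCP against 0.298 to 0.777 FPKM on the films. Neither Adipoq nor Plin1 passed the filter on low values, and Cidec, another such marker, was listed at 0 on TCP against 0 to 0.0456 FPKM. Of 13 adipogenic genes tested, 8 (61.5%) were above and 4 (30.8%) below every film library, beside 25.7% and 29.4% of all tested genes. The part of adipocyte-like cells in these values was not tested.

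Matrix and secreted proteins counted 15. Wisp2 (Ccn5) and Ctgf (Ccn2), matricellular proteins of the CCN family, were high on TCP. Wisp2 was at 167 FPKM on TCP, 25.6, 29.3 and 23.3 FPKM on PCL and 39.9, 38.1 and 30.1 FPKM on ISB-P, and Ctgf at 119 FPKM on TCP, 27.2, 32.0 and 32.9 FPKM on PCL and 24.3, 25.1 and 24.9 FPKM on ISB-P. They stood in opposite order on the films, as ISB-P was above PCL for Wisp2 and below it for Ctgf in every library. Timp3, an inhibitor of metalloproteinases that binds matrix, was at 33.6 FPKM on TCP, 2.00, 2.97 and 3.00 FPKM on PCL and 7.85, 8.93 and 8.27 FPKM on ISB-P, so that ISB-P lay between PCL and TCP. Nptx1, a secreted pentraxin, was at 16.2 FPKM on TCP, 3.65, 3.78 and 3.12 FPKM on PCL and 1.49, 1.78 and 1.10 FPKM on ISB-P, with ISB-P lowest. Ssc5d, a secreted scavenger receptor protein, was at 41.5 FPKM on TCP against 5.80 to 11.1 FPKM on the films, Prelp, a leucine-rich matrix proteoglycan, at 16.2 FPKM on TCP against 2.97 to 4.81 FPKM on the films, and Fbln5, which takes part in elastic fibre assembly, at 47.9 FPKM on TCP against 18.8 to 21.5 FPKM on the films. Sfrp1, an inhibitor of Wnt ligands, was at 33.4 FPKM on TCP against 9.07 to 10.8 FPKM on the films.

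Collagens pointed the same way with smaller folds. Of 14 tested, 13 were above every film library, beside 25.7% of all tested genes, and 0 met the rule, with a median of 0.67. Col1a1 was at 10405.8 FPKM on TCP against 3868 to 6058 FPKM, and Col3a1 at 5132 FPKM on TCP against 2241 to 2975 FPKM on the films. Of 25 other matrix genes, 18 were above every film library and 2 were TCP-higher, Prelp and Fbln5. Focal adhesion plaque proteins had 14 of 22 and contractile and actin genes 16 of 26 above every film library, with medians of 0.41 and 0.36 and no gene within the rule. These are 63.6% and 61.5% of their lists. Integrins had 6 of 11 above (54.5%) and 2 below (18.2%), beside 25.7% and 29.4% of all tested genes, with a median of 0.33, and Itgb1 was at 481 FPKM on TCP against 455 to 1164 FPKM on the films. Among CCN genes and YAP targets 12 of 17 (70.6%) were above every film library and 2 met the rule, Wisp2 and Ctgf. The promoter of Ctgf (chr1:22624565-22624864, minus strand) is printed for the TEAD motif (GGAATG), through which YAP acts, and the TATA box (TATAAA), both in capitals.
Ctgf: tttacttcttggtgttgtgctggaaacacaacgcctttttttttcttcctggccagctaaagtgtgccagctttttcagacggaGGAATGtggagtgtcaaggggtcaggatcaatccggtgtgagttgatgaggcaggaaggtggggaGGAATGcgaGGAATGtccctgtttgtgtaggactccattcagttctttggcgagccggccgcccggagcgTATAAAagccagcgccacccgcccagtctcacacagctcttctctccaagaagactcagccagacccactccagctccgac

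GGAATG began 166, 101 and 92 bases before the start of Ctgf. It was in 8 of the 42 TCP-higher, 14 of the 146 TCP-lower and 13.9% of all promoters, and TATAAA was in 14.3% of all promoters.

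The interferon, complement, chemokine and macrophage-associated group counted 10. Ccl12, a chemokine that attracts monocytes, was at 37.8 FPKM on TCP, 1.88, 2.07 and 3.48 FPKM on PCL and 4.50, 3.43 and 4.06 FPKM on ISB-P. Isg15, a ubiquitin-like protein induced by interferon, was at 30.2 FPKM on TCP, 8.30, 5.36 and 5.85 FPKM on PCL and 7.90, 8.59 and 6.38 FPKM on ISB-P, and Irf7, a regulator of interferon genes, at 23.2 FPKM on TCP, 7.82, 6.98 and 5.99 FPKM on PCL and 9.32, 8.32 and 6.33 FPKM on ISB-P. Cxcl10, an interferon-induced chemokine, was at 31.5 FPKM on TCP against 8.59 to 11.1 FPKM on the films. None of these 4 genes separated the films. Of 25 interferon-induced genes tested, 19 were above every film library and 0 below, beside 25.7% and 29.4% of all tested genes. The list had a median of 0.95, though only 2 of its genes, Isg15 and Irf7, met the rule. Rsad2 and Oasl, antiviral effectors, were at 8.92 and 7.56 FPKM on TCP against film means of 1.77 and 1.73 FPKM. C1s, a complement protease, and Serping1, its inhibitor, were at 24.7 and 18.0 FPKM against 5.96 to 8.88 and 7.48 to 8.17 FPKM.

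Macrophage markers were higher on TCP along with this group. Lyz2, the lysozyme of myeloid cells, was a TCP-higher gene at 72.9 FPKM on TCP, 16.6, 20.7 and 21.5 FPKM on PCL and 20.7, 23.9 and 27.2 FPKM on ISB-P. Cd68 was at 15.1 FPKM on TCP against 3.05 to 6.24 FPKM on the films, Cd14 at 31.7 FPKM on TCP against 10.9 to 16.6 FPKM on the films, Csf1r at 5.70 FPKM on TCP against 1.66 to 2.33 FPKM on the films and Fcer1g at 14 FPKM on TCP against 2.80 to 4.52 FPKM on the films. The summed level of the 14 markers was 165 FPKM on TCP and 51.2 to 60.9 FPKM on the films, as given above, and their part in the interferon and chemokine values was not tested. The interferon-stimulated response element (GAAANNGAAA), a motif chosen after the values were seen, was in 3 of the 7 promoters of the group with an entry (42.9%), those of Cxcl10, Apol9a and Irf7, and in 3.77% of all promoters. Cxcl10 (chr14:15988816-15989115, plus strand) holds it 243 bases before the start, shown in capitals with a TATAAA.
Cxcl10: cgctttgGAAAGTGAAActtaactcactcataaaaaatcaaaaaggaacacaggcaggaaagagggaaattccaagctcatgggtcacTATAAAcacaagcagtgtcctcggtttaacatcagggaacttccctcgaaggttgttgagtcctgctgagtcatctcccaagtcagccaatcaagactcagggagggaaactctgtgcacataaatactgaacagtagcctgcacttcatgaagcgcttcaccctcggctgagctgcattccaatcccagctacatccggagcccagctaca

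Transcription factors counted 4. Fos, the immediate early factor of AP-1, was at 37.1 FPKM on TCP, 9.78, 7.43 and 8.57 FPKM on PCL and 8.29, 6.49 and 5.33 FPKM on ISB-P, Nr4a1, an orphan nuclear receptor, at 18.5 FPKM on TCP against 3.04 to 5.87 FPKM on the films, Klf4 at 63.2 FPKM on TCP, 12.5, 11.1 and 10.9 FPKM on PCL and 25.4, 25.2 and 20.8 FPKM on ISB-P and Glis2 at 48.8 FPKM on TCP against 8.22 to 17.5 FPKM on the films. On the list of immediate early genes 16 of 31 (51.6%) were above and 5 (16.1%) below every film library, beside 25.7% and 29.4% of all tested genes, 3 were TCP-higher and 1, Ier3, was TCP-lower at 70.1 FPKM on TCP against 212 to 289.9 FPKM on the films. Fosl1, another partner in AP-1, was at 85.5 FPKM on TCP against 133 to 257 FPKM on the films and Myc at 39.3 FPKM on TCP against 74.7 to 99.7 FPKM on the films, opposite to Fos. Immediate early genes thus stood on both sides.

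Receptors and signalling genes on the high side included Mrgprf, an orphan G protein-coupled receptor, at 80.8 FPKM on TCP against 14.4 to 20.3 FPKM on the films, Ptprv, a receptor-type phosphatase, at 29.1 FPKM on TCP against 4.77 to 7.18 FPKM on the films, and Rasl12, a Ras-like GTPase, at 16.9 FPKM on TCP against 2.71 to 4.23 FPKM on the films. Tnfrsf11b (osteoprotegerin), a decoy receptor that restrains osteoclast formation, was at 17.9 FPKM on TCP against 4.41 to 6.32 FPKM on the films, and Gas6, the ligand of Axl, at 182 FPKM on TCP against 53.3 to 73.8 FPKM on the films. MGC112715, an unnamed gene with no match in RefSeq's table, was at 22.1 FPKM on TCP against 2.60 to 4.01 FPKM on the films. Mir3074 and Mir3120 were listed at 435 and 357 FPKM on TCP. On the films they varied from 0 to 109 and from 0 to 159 FPKM. They are hairpin genes that overlap other transcripts, and in poly(A)-selected libraries such values do not measure the mature miRNA.

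**Figure D4:**
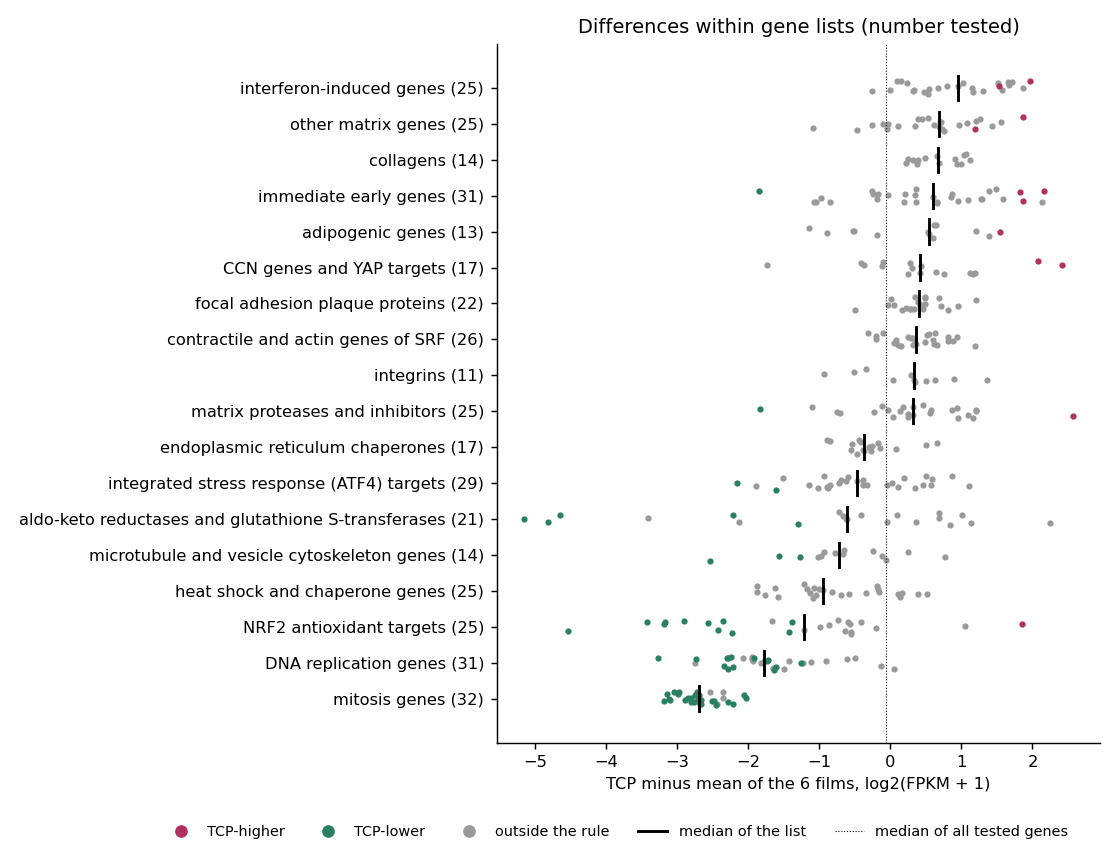
The difference of TCP from the mean of the 6 film libraries, log2(FPKM + 1), for each tested gene of 18 of the 36 gene lists, those with the 8 lowest and the 10 highest medians, with the number tested in brackets. Bars mark the median of a list and the dotted line the median of all tested genes, -0.06. Mitosis genes lie between -3.18 and -2.03, while collagens lie between 0.22 and 1.13.

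Whether the films differed from each other in the members was tested with limma on the 6 film libraries, a contrast that did not choose the genes although the same film values entered the rule. Of the 179 TCP-lower genes, ISB-P exceeded PCL in 12 and was lower in 0 at an adjusted p under 0.05. Over all 9537 genes 1.11% were higher and 0.608% lower. Of the 65 TCP-higher genes 2 were higher and 1 lower. The labels number the film replicates but state no pairing, which was read from these same film values. With the replicate number as a block, 45 TCP-lower genes were higher and 6 lower, while 13.0% of all tested genes were higher and 11.4% lower. In that fit ISB-P was above PCL in 10 TCP-higher genes and below it in 9. Without the block, the count of TCP-lower genes was 3 without PCL replicate 2, 4 without ISB-P replicate 2, 5 without PCL replicate 1 and 6 without PCL replicate 3. That of TCP-higher genes was 0 without PCL replicate 2 or ISB-P replicate 2, and 1 without PCL replicate 1, PCL replicate 3 or ISB-P replicate 1. The share of all tested genes called fell as well, from 1.72% with all 6 film libraries. It was 0.231% without PCL replicate 2, 0.283% without ISB-P replicate 2 and 0.367% without PCL replicate 1. Without PCL replicate 3 it was 0.440%, and without ISB-P replicate 1 0.849%. Every ISB-P library was above every PCL library in 33 of the 179 TCP-lower genes and below in 8, and in 8 and 7 of the 65 TCP-higher genes. Over all tested genes these shares were 8.21% and 9.53%.

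By group, of 21 antioxidant genes 5 were higher on ISB-P (Akr1b8, Akr1b10, Srxn1, Ggt1 and Ptgr1), of 14 ligand and feedback genes 5 (Ereg, Tgfa, Adm and Adamts1 among them) and of 15 others 2 (Zfand2a and RGD1559493). None of the 76 mitosis or 43 replication genes was called by limma, and of all tested genes 1.11% were higher and 0.608% lower. An unadjusted limma p under 0.05 was found for 2 of the mitosis and 0 of the replication genes, and for 1154 of all 9537 genes. With the block 8 of the mitosis and 6 of the replication genes were higher and 3 and 1 lower. Of the antioxidant genes 16 were higher and 2 lower in that fit, beside 13.0% and 11.4% of all tested genes. The median difference of ISB-P from PCL was 0.46 among the antioxidant, 0.26 among the ligand and 0.01 among the mitosis genes, beside 0.02 over all tested genes.

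Zfand2a had the lowest adjusted p, with 117 ± 6.02 FPKM on PCL and 583 ± 32.7 FPKM on ISB-P (SD, n = 3 each), a difference of 2.31 ± 0.11 (SE) on log2(FPKM + 1) and adjusted p = 0.000991 by limma. RGD1559493 (Cimap2) was at 10.7 ± 0.806 FPKM on PCL and 39.1 ± 4.15 FPKM on ISB-P, with a difference of 1.78 ± 0.14 and limma adjusted p = 0.0034. Akr1b8 differed by 1.14 ± 0.10 (limma adjusted p = 0.00396), Ereg by 2.00 ± 0.19 (limma adjusted p = 0.00531) and, farther down the order, Akr1b10 by 1.15 ± 0.17 (limma adjusted p = 0.0309). In all 5 genes every ISB-P library was above every PCL library, so that ISB-P stood farther from TCP than PCL did. With single libraries left out, the limma adjusted p stayed under 0.05 for Zfand2a and RGD1559493, reaching 0.0264 and 0.0459. It rose to at most 0.0527 for Akr1b8, 0.0537 for Ereg and 0.193 for Akr1b10. Between these in the order stood Adamts1, Ggt1, Adm and Srxn1, which differed by 1.10 ± 0.12, 1.19 ± 0.13, 1.00 ± 0.11 and 0.67 ± 0.10. Their limma adjusted p values were 0.00839, 0.00866, 0.0121 and 0.0287, and with 1 library left out they rose to at most 0.0996, 0.0996, 0.13 and 0.199.

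Hmox1 and Slc7a11 also stood apart, with ISB-P above PCL in every library, at differences of 0.92 ± 0.18 and 1.79 ± 0.44. Their limma adjusted p values were 0.0641 and 0.135 without the block and 4.72e-05 and 3.14e-05 with it. Nqo1 differed by 0.07 ± 0.13, with a limma adjusted p of 0.931.

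Among the TCP-higher genes Timp3 was at 2.66 ± 0.567 FPKM on PCL and 8.35 ± 0.543 FPKM on ISB-P (SD, n = 3 each), a difference of 1.37 ± 0.15 with limma adjusted p = 0.00939. Klf4 differed by 0.99 ± 0.13, with limma adjusted p = 0.0222. For both, ISB-P lay closer to TCP than PCL did. Nptx1 was at 3.52 ± 0.349 FPKM on PCL and 1.46 ± 0.338 FPKM on ISB-P, a difference of -0.89 ± 0.14 with limma adjusted p = 0.034, and here PCL lay closer to TCP. With 1 library left out, the limma adjusted p rose to at most 0.0941 for Timp3, 0.17 for Klf4 and 0.197 for Nptx1. For Car3 and Tm7sf2, whose least folds were the largest among the TCP-higher genes, the differences between the films were -0.05 ± 0.16 and -0.02 ± 0.16, with limma adjusted p values of 0.959 and 0.981.

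**Figure D5:**
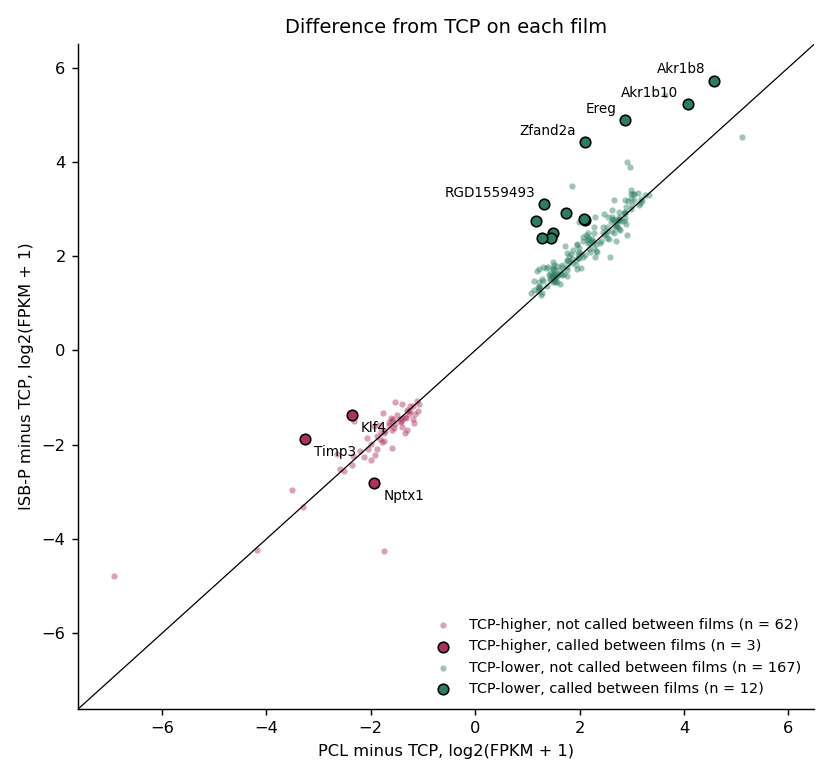
For each of the 244 genes, the PCL mean minus TCP (horizontal) and the ISB-P mean minus TCP (vertical), both on log2(FPKM + 1), with a line of equal differences. Outlined points are the 3 TCP-higher and 12 TCP-lower genes called between the films by limma at an adjusted p under 0.05. The 12 TCP-lower genes lie above the line, where ISB-P is farther from TCP than PCL is.

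The spread of the members among the 6 film libraries is given as a description, since the rule used the same film values. The coefficient of variation over these libraries had a median of 15.1% in the TCP-higher and 19.8% in the TCP-lower genes. In all tested genes that reach 16 FPKM the median was 17.1%. The median was 29.4% in the ligand and feedback group and 22.4% in the antioxidant group, which together held 10 of the 12 TCP-lower genes called between the films. In the mitosis group it was 19.1%.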

How the data were processed

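The data were 7 RNA-seq libraries of rMSCs, 1 from TCP, 3 from PCL films and 3 from ISB-P films, grouped by their labels. The deposited files hold 1 value per symbol, read here as FPKM as the authors made them with Cuffdiff 2.2.1 from TopHat2 2.0.13 alignments to rn5, after bcl2fastq 2.20.0.422 and cutadapt 1.18, per the labels. The unit was inferred, since the file headers do not name it. The study states stranded, poly(A)-selected libraries with paired reads of 100 bases. FPKM keeps no depth. For ISB-P replicate 1, 45.5% of 224 low values had nearly the same ratio to TCP, against 8% to 16.3% in the other film libraries. No such step was common to the libraries, and reads were not recovered.

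Values were used as deposited, with a pseudocount of 1 FPKM on the log2 scale. ISB-P minus PCL was fitted on the 6 film libraries with limma 3.58.1 (lmFit, eBayes with trend, R 4.3.3), two-sided, with Benjamini-Hochberg adjustment over 9537 genes. On simulated data, 88% of 200 genes changed by 2 on the log2 scale were recovered, with 9 false calls. The simulated libraries had independent noise, and only genes of higher mean level were changed. Smaller changes and deviations shared by same-numbered film libraries were not simulated, so these figures do not cover them. The replicate numbers come from the labels, and over genes the deviations of same-numbered PCL and ISB-P libraries correlated at 0.886, 0.43 and 0.867 for replicates 1, 2 and 3, so a fit with the number as a block is given beside it. The values may come from repeat cultures of 1 animal's cells, so p-values measure the spread among these libraries.

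The members, function groups and 36 gene lists were chosen with earlier results of these data known. Genes named were the 20 with the largest least fold in each direction, list members within the rule, the 3 on each side of the limit, and the 5 lowest adjusted p between the films in each direction. Of the members, limma without the block called 1 lower on ISB-P. Some genes that meet the rule are counted but not reported here by name. Other genes named were chosen after their values were seen. Symbols were matched to RefSeq's table (GRCr8) for names and promoters, and no coordinates of the deposited build were used. Alternatives were 4 scalings, a pseudocount of 0.1 FPKM, other filters and limits, the replicate block and single libraries left out.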

Additional observations from a re-analysis of the deposited data

Results flagged for a closer look

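The distance from TCP differed between the films for the members below by limma's test of ISB-P against PCL, since the TCP value is common to both distances. Among the TCP-lower genes, ISB-P exceeded PCL by 2.31 for Zfand2a, 2.00 for Ereg, 1.78 for RGD1559493, 1.19 for Ggt1, 1.15 for Akr1b10, 1.14 for Akr1b8, 1.10 for Adamts1, 1.00 for Adm, 0.94 for Ptgr1, 0.70 for Tgfa and 0.67 for Srxn1, all on log2(FPKM + 1), and higher in 3 of 3 ISB-P libraries than in any PCL library. Among the TCP-higher genes, Timp3 was 1.37 and Klf4 0.99 higher on ISB-P, and Nptx1 was lower there, with a difference of -0.89. Not all of these calls held when single film libraries were left out. In those fits 3 to 10 TCP-lower and 0 to 2 TCP-higher genes were called, beside 0.231% to 1.23% of all tested genes. The cause of the differences between the films was not tested.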

How the results depend on the processing

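With 1 TCP library no test of TCP was made, no replicate of it could be left out, and the depth behind low values is unknown. The 65 TCP-higher genes became 101 with upper quartile scaling, 134 with no level limit, 21 at a fold over 3, 121 against the PCL mean and the ISB-P mean, 101 with PCL libraries only and 110 with ISB-P libraries only. The 179 TCP-lower genes became 291 with no level limit, 107 at a fold over 3, 304 against the 2 means and 272 with ISB-P libraries only. The loss at a fold over 3 and the gain with no level limit or fewer libraries follow from the construction of those settings, while for the scaling the cause was not tested. With single film libraries left out the counts ranged from 65 to 81 and from 174 to 213. Median-of-ratios scaling gave 75 and 166, a pseudocount of 0.1 FPKM 73 and 186, and 1 FPKM in all 7 files 63 and 175. Under the 4 scalings tried, the only lists whose median changed sign were hypoxia and glycolysis and metallothioneins and metal transport.

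Between the films, the replicate block raised the TCP-higher genes called from 3 to 19 and the TCP-lower genes from 12 to 51, and upper quartile scaling gave 1 TCP-higher gene. Over all tested genes the block raised the share called from 1.72% to 24.4%, beside 29.2% of the TCP-higher and 28.5% of the TCP-lower genes with the block. Upper quartile scaling called 1.14% of all tested genes. With single libraries left out the counts ranged from 0 to 2 and from 3 to 10. The share of all tested genes called in those fits ranged from 0.231% to 1.23%, and the cause of the differences among them was not tested. The other settings gave 2 to 3 and 10 to 12.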

Other observations

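The lists below are given beside the shares over all tested genes, 29.4% below and 25.7% above every film library. In the integrated stress response, through which ATF4 raises amino acid synthesis and import, 17 of 29 genes tested (58.6%) were below and 5 (17.2%) above every film library. Psat1 and Mthfd2, enzymes of serine and mitochondrial folate metabolism, were TCP-lower at 10.5 FPKM on TCP against 42.1 to 59.9 FPKM on the films and 17.2 FPKM on TCP against 48.8 to 63.7 FPKM on the films. Trib3 was at 1.11 FPKM against a film mean of 5.61 FPKM, while Ddit4 was at 42.3 FPKM against 19.5 FPKM. Chaperones of the endoplasmic reticulum had 11 of 17 (64.7%) below every film library and 0 within the rule. In hypoxia and glycolysis, 13 of 31 (41.9%) were below and 6 (19.4%) above, with Slc2a1, the glucose transporter GLUT1, TCP-lower at 24.5 FPKM on TCP against 63.7 to 94.6 FPKM on the films and Aldoc TCP-higher.

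Among inflammatory genes, Lif and Ptgs2 were TCP-lower and Tnfaip2 TCP-higher at 41.5 FPKM on TCP against 8.83 to 19.5 FPKM on the films. Il6 was at 0.835 FPKM on TCP against 1.2 to 15 FPKM on the films, and the neutrophil chemokine Cxcl2 at 0.0733 FPKM on TCP against 2.46 to 5.73 FPKM on the films, while Il33 was at 3.98 FPKM on TCP against 0.498 to 1.77 FPKM on the films. Genes of bone and mineralization had 8 of 15 (53.3%) above and 4 (26.7%) below every film library. Runx2, the factor that sets the osteoblast fate, was at 10.5 FPKM on TCP against 21.2 to 31.8 FPKM on the films, whereas Sp7, which acts after it, was at 15.6 FPKM on TCP against 3.29 to 7.94 FPKM on the films. Of 20 p53 targets 9 (45%) were above and 3 (15%) below, with 0 within the rule. Slc40a1, the iron exporter ferroportin, was at 0.415 FPKM on TCP, 7.27, 13.1 and 12.9 FPKM on PCL and 10.4, 14.1 and 22.1 FPKM on ISB-P and did not meet the rule. Txnip, an inhibitor of thioredoxin, was at 170.3 FPKM on TCP, 19.0, 23.0 and 26.1 FPKM on PCL and 70.6, 76.9 and 91.5 FPKM on ISB-P. Klf2, a factor induced by shear stress in vessels, was at 67.6 FPKM on TCP against 4.05 to 58.4 FPKM on the films. These genes were chosen after their values were seen.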
